A study of Mus musculus with 8 samples.

Results

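The 10 genes described here encode the TGF-beta ligands (Tgfb1, Tgfb2 and Tgfb3), their receptors (Tgfbr1, Tgfbr2 and Tgfbr3) and the latent TGF-beta binding proteins (Ltbp1, Ltbp2, Ltbp3 and Ltbp4). They were chosen by gene symbol from the 18957 genes listed for each library, and all 10 were listed and passed the filter on low counts. To compare transcript levels before the onset of cardiac dysfunction, RNA of sorted ventricular cells was sequenced from 4 WT and 4 Pdgfra-Cre:LmnaF/F mice aged 3 to 4 weeks, with 1 library per mouse. The sorted cells were DAPI-negative, negative for haematopoietic lineage markers, and positive for PDGFRA, a growth factor receptor that marks most cardiac fibroblasts. The Pdgfra-Cre:LmnaF/F mice carry a floxed exon 2 of Lmna, the gene of the nuclear envelope proteins lamin A and C, and a BAC transgene that expresses Cre under the control of Pdgfra. WT mice were littermates with wild-type alleles only, so that no group with Cre and intact Lmna is compared here. All mice were of a mixed C57BL/6 background. Pdgfra-driven Cre is not limited to fibroblasts, as the locus is also active in other mesenchymal tissues and, during development, in a subset of cardiac myocytes.

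TGF-beta is secreted in an inactive form. The cleaved propeptide stays wrapped around the mature ligand, and this small latent complex is joined to a latent TGF-beta binding protein, which anchors it to the fibrillin microfibrils of the extracellular matrix. Integrins, thrombospondin and proteases release the ligand, which binds the type II receptor TGFBR2, and this recruits and phosphorylates the type I receptor TGFBR1, which in turn phosphorylates SMAD transcription factors. In the heart, the pathway is best known for turning fibroblasts into matrix-producing myofibroblasts.

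Total counts per library lay between 2080555 and 12502949, with WT replicate 2 the shallowest, and levels are given as CPM, counts scaled to a common library size, after TMM normalization. Lmna was 331, 274, 483 and 374 CPM in the WT mice numbered 1 to 4, against 126, 97.4, 130.0 and 90.4 CPM in the Pdgfra-Cre:LmnaF/F mice with these numbers, a log2 fold change of -1.72 (SE 0.22, edgeR adjusted p = 0.00492). The groups did not overlap. The 8 fibroblast markers summed to 31255 to 34300 CPM in WT and to 31872 to 43427 CPM in Pdgfra-Cre:LmnaF/F libraries, and none was at 0 in any library. The 6 cardiac myocyte markers summed to 257 to 569 CPM in WT. They summed to 183 to 368 CPM in Pdgfra-Cre:LmnaF/F replicates 1 to 3 and to 3010 CPM in replicate 4, which also had the highest sum of the 8 haematopoietic markers (442 CPM against 44.3 to 183 CPM in the other libraries). The T cell marker Cd3e had no counts in 6 libraries and the B cell marker Cd79a in 4. Markers of endothelial, mural, epicardial and Schwann cells overlapped between the genotypes, with sums of 160 to 455, 203 to 392, 6.67 to 37.2 and 22.5 to 57.3 CPM over the 8 libraries. Of the 19 genes of the tissue dissociation response, 18 had a higher mean in Pdgfra-Cre:LmnaF/F mice. Of the 18 that were tested, 3 had an edgeR adjusted p under 0.05, as did 0.407% of all genes, and the sum of all 19 was 2279 to 4901 CPM in WT and 6917 to 11610 CPM in Pdgfra-Cre:LmnaF/F libraries. Y-linked transcripts summed to 143 to 273 CPM in WT replicates 1, 2 and 4 and in Pdgfra-Cre:LmnaF/F replicate 4, and to at most 1.96 CPM in the other 4 libraries, so that the libraries with and without them were spread unevenly over the genotypes. The labels give no sex, and the methods describe the groups as matched for sex where applicable.

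None of the 10 genes was a DEG, meaning an adjusted p under 0.05 over the 13036 genes tested with the quasi-likelihood test of edgeR, where 0.407% of all genes passed (53 genes). The type I receptor gene Tgfbr1 had a 1.78-fold higher mean in Pdgfra-Cre:LmnaF/F mice. Ltbp4 had a 1.83-fold lower mean and Tgfb3 a 1.47-fold lower mean. For these 3 genes the libraries of the genotypes did not overlap and the unadjusted p was under 0.05. Among all genes tested, 8.03% did not overlap in either direction and 11.9% had an unadjusted p under 0.05. The other 7 genes overlapped. Of the 10 log2 fold changes 4 were above and 6 below 0, and their median was -0.01 against 0.03 over all genes tested. The median of their sizes was 0.19 against 0.34 over all genes tested. These sizes are not of like precision, as the median SE over all genes tested was 0.34. The SE of the 10 genes was 0.19 to 0.34, apart from Ltbp2 with 0.75. With other tools the count was 2 genes with DESeq2 (Tgfbr1, adjusted p = 0.0352, and Ltbp4, adjusted p = 0.00262), where 2.32% of all genes passed. DESeq2 with 1 factor of unwanted variation called the same 2 genes (adjusted p = 0.02 and 4e-05), where 3.51% of all genes passed. With limma-voom it was Ltbp4 alone (adjusted p = 0.0314), where 0.967% of all genes passed. Tgfb3 passed with none of them (adjusted p = 0.0828 to 0.18). Of these tools, DESeq2 is the one the paper used for its DEGs, after RUV normalization (removal of unwanted variation) and with the same threshold. The number of RUV factors is not given in the sources used here.

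**Figure D1:**
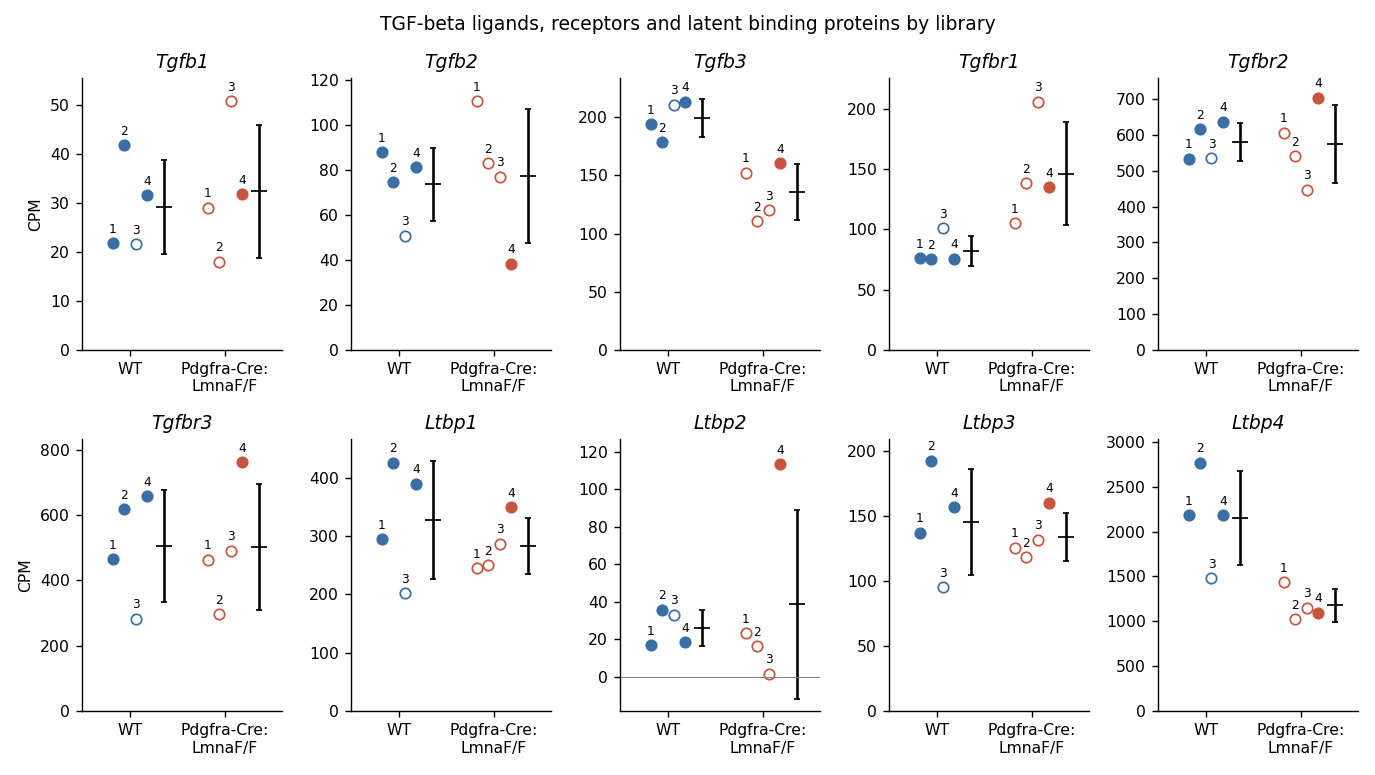
CPM of the 10 genes in each library, with the replicate number above each point, filled points for libraries with Y-linked transcripts and open points for those without. The horizontal mark and its bar give the mean and SD of 4 libraries. For Tgfbr1 all Pdgfra-Cre:LmnaF/F points (105 to 206 CPM) lie above all WT points (75.5 to 101 CPM), for Tgfb3 and Ltbp4 they lie below, and for Ltbp2 the points of Pdgfra-Cre:LmnaF/F replicates 3 and 4 lie far apart at 1.61 and 113 CPM.

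Per transcript length, levels of the 10 genes in WT fibroblasts spanned from 1337 to 12.6 TPM. TPM was computed here from the counts and the summed exon length of each gene, and only TPM is compared between genes. Ltbp4 was the most abundant, with a mean of 1337 ± 354 TPM (SD, n = 4), which was 4.32-fold the level of the next gene. It was followed by the co-receptor Tgfbr3 (310 ± 107 TPM), the type II receptor Tgfbr2 (283 ± 28.7 TPM) and the ligand Tgfb3 (235 ± 15.6 TPM), whose ranges overlapped from one to the next. Below a gap of 1.91-fold came Ltbp1 (123 ± 39.2 TPM), Ltbp3 (64.2 ± 18.9 TPM), Tgfb2 (51.0 ± 12.7 TPM) and Tgfbr1 (50.0 ± 5.90 TPM), again with ranges that overlapped between neighbours. Tgfb1 (23.1 ± 7.83 TPM) lay 2.16-fold below Tgfbr1 without overlap. The range of Ltbp2 (12.6 ± 4.598 TPM), the lowest, overlapped with that of Tgfb1. The ligand best known from injured tissue, Tgfb1, was thus the ligand with the lowest transcript level in the sorted cells, and the transcript of the type II receptor was more abundant than that of the type I receptor in every WT library.

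In Pdgfra-Cre:LmnaF/F fibroblasts the order of the first 5 genes and of the last 2 was unchanged, and Tgfbr1 moved from the eighth to the sixth place. Ltbp4 had 731 ± 133 TPM, 2.41-fold the level of Tgfbr3 (304 ± 101 TPM). Tgfbr2 (278 ± 35.2 TPM) and Tgfb3 (160.1 ± 23.2 TPM) no longer overlapped, with a ratio of 1.74. Ltbp1 had 105 ± 14.2 TPM, 1.52-fold below Tgfb3 without overlap. Tgfbr1 (90.5 ± 31.7 TPM) overlapped with Ltbp1 and lay above Ltbp3 (58.8 ± 5.71 TPM) without overlap. Ltbp3, Tgfb2 (54.0 ± 22.1 TPM), Tgfb1 (26.0 ± 12.4 TPM) and Ltbp2 (17.7 ± 22.3 TPM) overlapped from one to the next.

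Among the ligands, Tgfb3 separated the genotypes. Tgfb3, on chromosome 12 (GRCm38, chr12:86056745-86079041, minus strand), was 194, 179, 211 and 213 CPM in the WT replicates (numbers 1 to 4). In Pdgfra-Cre:LmnaF/F replicates 1 to 4 it was 152, 111, 120.3 and 161 CPM. Each Pdgfra-Cre:LmnaF/F library was below each WT library, the nearest being Pdgfra-Cre:LmnaF/F replicate 4 and WT replicate 2. The means were 199 ± 16.2 and 136 ± 24.3 CPM, and the log2 fold change was -0.55 (SE 0.19, 95% interval -0.96 to -0.14, unadjusted p = 0.0114, edgeR adjusted p = 0.249). Exons of antisense genes overlap 4.82% and 7.6% of the exon bases of Tgfb3, 9.34% of those of Ltbp2 and 2.14% of those of Tgfb2, and a gene on the same strand overlaps 4.54% of those of Tgfbr3. Whether the counting used strand is not given in the sources used here. In RNA of sorted cells, fewer expressing cells and less RNA per cell cannot be told apart, which holds for each gene below too.

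Tgfb1, on chromosome 7 (chr7:25687002-25705077, plus strand), was 21.8, 41.8, 21.6 and 31.5 CPM in WT and 29.0, 17.9, 50.7 and 31.7 CPM in Pdgfra-Cre:LmnaF/F replicates 1 to 4. Both the highest and the lowest value were from Pdgfra-Cre:LmnaF/F libraries. The log2 fold change was 0.16 (SE 0.34, edgeR adjusted p = 0.908), and its 95% interval of -0.56 to 0.89 leaves room for a change of 1.85-fold upward. Without Pdgfra-Cre:LmnaF/F replicate 3 it was -0.14. Tgfb2, on chromosome 1 (chr1:186622792-186705989, minus strand), was 87.9, 74.5, 50.6 and 81.3 CPM in WT and 110.5, 83.0, 76.9 and 38.3 CPM in Pdgfra-Cre:LmnaF/F replicates 1 to 4. Its log2 fold change was 0.07 (SE 0.29, 95% interval -0.55 to 0.68, edgeR adjusted p = 0.961). Without Pdgfra-Cre:LmnaF/F replicate 1 it was -0.16 and without WT replicate 3 it was -0.08. Tgfb2 was high in replicate 1 and low in replicate 4 of the Pdgfra-Cre:LmnaF/F mice, and the library without Y-linked transcripts was the lowest of WT.

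The summed level of the 3 ligands was 319, 299, 287 and 331 TPM in WT and 284, 202, 255 and 220 TPM in Pdgfra-Cre:LmnaF/F replicates 1 to 4. The sums did not overlap, with means of 309 ± 20.01 and 240.1 ± 36.5 TPM, although WT replicate 3 and Pdgfra-Cre:LmnaF/F replicate 1 were nearly equal. Tgfb3 made up 76.1 ± 4.76% of the sum in WT and 67.0 ± 7.98% in Pdgfra-Cre:LmnaF/F mice. Tgfb2 made up 16.4 ± 3.43% and 22.3 ± 7.96%, and Tgfb1 7.49 ± 2.62% and 10.7 ± 4.48%. These 3 shares overlapped between the genotypes. In Pdgfra-Cre:LmnaF/F replicate 4 Tgfb3 held 78.6%. Shares of a class were not tested.

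Among the receptors, Tgfbr1 differed most. Tgfbr1 lies on chromosome 4 (chr4:47353222-47414931, plus strand). It was 76.2, 75.5, 101 and 75.8 CPM in the WT replicates (numbers 1 to 4). In Pdgfra-Cre:LmnaF/F replicates 1 to 4 it was 105, 138, 206 and 135 CPM. WT replicate 3 stood above the other WT libraries and came close to Pdgfra-Cre:LmnaF/F replicate 1, and the highest value was that of Pdgfra-Cre:LmnaF/F replicate 3. The means were 82.1 ± 12.5 and 146 ± 42.7 CPM, and the log2 fold change was 0.83 (SE 0.23, 95% interval 0.35 to 1.32, unadjusted p = 0.00227, edgeR adjusted p = 0.138). When any 1 library was omitted, it lay between 0.62, without Pdgfra-Cre:LmnaF/F replicate 3, and 0.96, without Pdgfra-Cre:LmnaF/F replicate 1. The sum of the dissociation response genes was also highest in Pdgfra-Cre:LmnaF/F replicate 3 (11610 CPM) and highest of WT in replicate 3 (4901 CPM), the same libraries as for Tgfbr1. The part of that response in the Tgfbr1 values was not tested.

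Tgfbr1 and Ltbp4 were the genes that passed in more than 1 of the fits with other tools, so the 5' flanks of both are shown. They are the bases directly upstream of the annotated start, taken from RefSeq (GRCm38.p6), where 8 of the 10 genes had an entry. Capitals mark GC boxes (GGGCGG or its reverse complement CCGCCC, both strands, overlapping matches counted), the binding motif of SP1-type factors. The table has 2 entries for Tgfbr1 and 3 for Ltbp4. Shown are the most upstream entry of Tgfbr1 and the 2 most upstream of Ltbp4, cut at the annotated gene or transcript start, and the other entries are not shown. Counts per gene do not tell transcripts of these starts apart. The Tgfbr1 flank is chr4:47352972-47353221 on the plus strand, and the Ltbp4 flanks are chr7:27337693-27337862 and chr7:27333664-27333913 on the minus strand.
Tgfbr1: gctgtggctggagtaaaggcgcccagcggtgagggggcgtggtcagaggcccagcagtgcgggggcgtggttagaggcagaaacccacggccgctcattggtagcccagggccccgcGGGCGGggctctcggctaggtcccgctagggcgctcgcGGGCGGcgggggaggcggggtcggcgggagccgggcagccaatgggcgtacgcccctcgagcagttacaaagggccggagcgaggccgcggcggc
Ltbp4 upstream start: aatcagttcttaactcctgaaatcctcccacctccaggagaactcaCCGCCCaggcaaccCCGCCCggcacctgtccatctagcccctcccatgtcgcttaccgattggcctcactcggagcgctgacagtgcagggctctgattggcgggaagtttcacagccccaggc
Ltbp4 downstream start: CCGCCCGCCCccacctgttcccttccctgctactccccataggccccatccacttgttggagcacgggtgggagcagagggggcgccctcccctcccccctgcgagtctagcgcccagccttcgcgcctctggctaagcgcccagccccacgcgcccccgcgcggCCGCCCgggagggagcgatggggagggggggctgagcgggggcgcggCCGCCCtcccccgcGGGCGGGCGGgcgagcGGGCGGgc
The Tgfbr1 flank held 2 GC boxes in 250 bases, the flank of the upstream start of Ltbp4 2 in 170 bases and that of its downstream start 7 in 250 bases. Of 32851 promoter windows in the same table, 32.7% held a GC box within 250 bases and 29.8% within 170 bases. The GC content of the flanks was 74.8%, 60.6% and 79.2%. The SMAD motif CAGAC or GTCTG, present in 42.2% of the windows of 250 bases and 31% of those of 170 bases, was not found in these letters.

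Tgfbr2 and Tgfbr3 showed no such difference in mean. Tgfbr2, on chromosome 9 (chr9:116084293-116175360, minus strand), was 533, 616, 535 and 637 CPM in WT and 606, 540.5, 447 and 704 CPM in Pdgfra-Cre:LmnaF/F replicates 1 to 4. Its log2 fold change was -0.02 (SE 0.20, edgeR adjusted p = 0.986), and the 95% interval of -0.44 to 0.41 corresponds to 0.737-fold to 1.33-fold. Tgfbr3 encodes betaglycan, which presents ligand to the signalling receptors. It lies on chromosome 5 (chr5:107106570-107289629, minus strand) and was 464, 617, 282 and 658 CPM in WT and 463, 296, 491 and 761 CPM in Pdgfra-Cre:LmnaF/F replicates 1 to 4. The spread within WT was 2.33-fold, with replicate 3 the lowest. Its log2 fold change was -0.01 (SE 0.30, 95% interval -0.65 to 0.63, edgeR adjusted p = 0.997). For both genes the sign of a value so near 0 depended on single libraries.

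Tgfbr1 was the smallest of the 3 receptor transcripts in each of the 8 libraries. It made up 8.21 ± 2.94% of the summed receptor TPM in WT and 13.7 ± 4.94% in Pdgfra-Cre:LmnaF/F mice. The shares by library were 7.90, 6.38, 12.5 and 6.11% in WT and 10.03, 16.0, 19.6 and 9.29% in Pdgfra-Cre:LmnaF/F replicates 1 to 4. They overlapped because of WT replicate 3, where Tgfbr3 was low and Tgfbr1 high. Tgfbr2 held 44.8 ± 5.43% and 42.1 ± 7.22%, and Tgfbr3 46.9 ± 8.37% and 44.2 ± 7.54%. The summed receptor level was 643 ± 130.0 TPM in WT and 673 ± 117 TPM in Pdgfra-Cre:LmnaF/F mice.

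**Figure D2:**
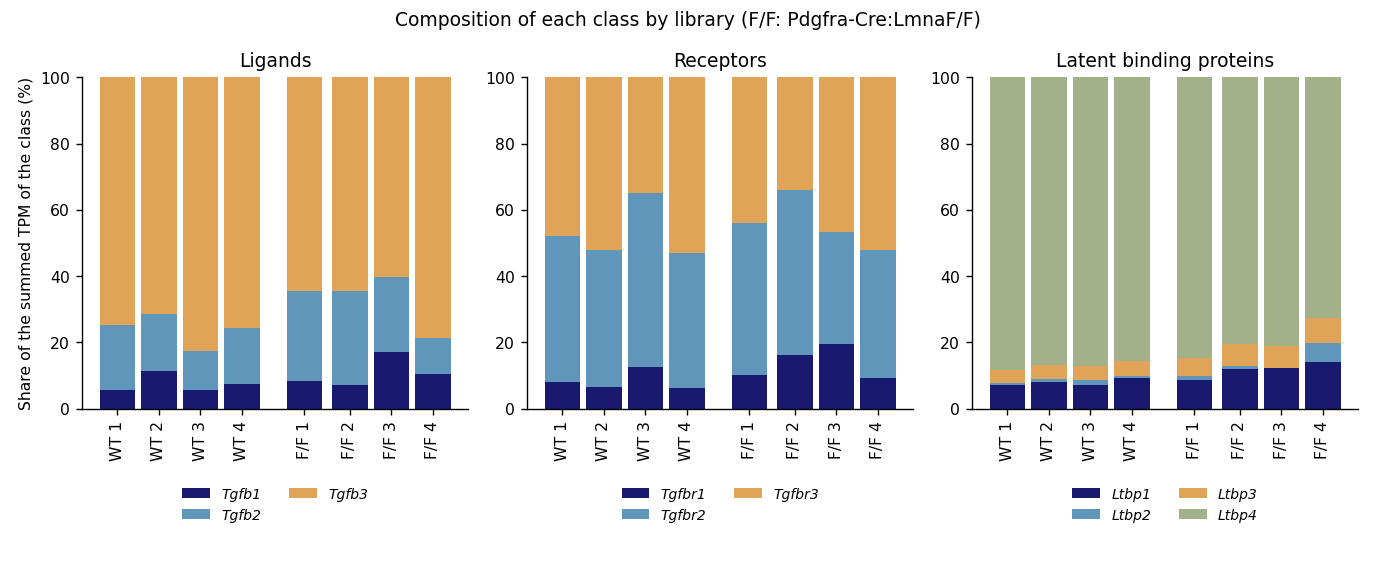
Share of each gene in the summed TPM of its class, in percent, for each library (F/F stands for Pdgfra-Cre:LmnaF/F). Tgfb3 is the largest part of the ligands and Ltbp4 the largest part of the latent binding proteins in all 8 libraries, and the Ltbp4 share is 85.8 to 88.3% in WT and 72.6 to 84.9% in Pdgfra-Cre:LmnaF/F mice.

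Among the latent binding proteins, Ltbp4 was both the most abundant transcript and the one that separated the genotypes. LTBP4 binds latent TGF-beta and also takes part in the assembly of elastic fibres. Ltbp4, on chromosome 7 (chr7:27305136-27337692, minus strand), was 2182, 2770.4, 1484 and 2183 CPM in the WT replicates (numbers 1 to 4). It was 1438, 1026, 1149.6 and 1098 CPM in Pdgfra-Cre:LmnaF/F replicates 1 to 4. The groups were separated by a narrow gap between WT replicate 3 and Pdgfra-Cre:LmnaF/F replicate 1, while the other 3 WT libraries were well above. The means were 2155 ± 526 and 1178 ± 180.5 CPM, and the log2 fold change was -0.87 (SE 0.23, 95% interval -1.35 to -0.39, unadjusted p = 0.00162, edgeR adjusted p = 0.129). When any 1 library was omitted, the log2 fold change lay between -1.02 and -0.73, and the adjusted p between 0.0589 and 0.333.

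Ltbp1, whose product is the classical carrier of latent TGF-beta, lies on chromosome 17 (chr17:75005568-75392512, plus strand). It was 294, 425, 201 and 389 CPM in WT and 245, 249.6, 287 and 349 CPM in Pdgfra-Cre:LmnaF/F replicates 1 to 4. Its log2 fold change was -0.21 (SE 0.24, 95% interval -0.72 to 0.30, edgeR adjusted p = 0.817). Ltbp3 encodes a further carrier of latent TGF-beta, on chromosome 19 (chr19:5740904-5758532, plus strand). It was 137, 192, 94.9 and 157 CPM in WT and 126, 118, 132 and 160.0 CPM in Pdgfra-Cre:LmnaF/F replicates 1 to 4. Its log2 fold change was -0.11 (SE 0.22, 95% interval -0.59 to 0.36, edgeR adjusted p = 0.903), and without WT replicate 2 it was 0.04. For both genes WT spread more widely than Pdgfra-Cre:LmnaF/F, from the lowest value in WT replicate 3 to the highest in WT replicate 2.

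Ltbp2 had the widest spread of the 10 genes. LTBP2 binds fibrillin and, unlike its relatives, does not carry latent TGF-beta. Ltbp2, on chromosome 12 (chr12:84783212-84876532, minus strand), was 16.7, 35.7, 33.2 and 18.5 CPM in WT, from 71 to 208 counts. In Pdgfra-Cre:LmnaF/F replicates 1 to 4 it was 23.2, 16.4, 1.61 and 113 CPM, or 224, 157, 14 and 1361 counts. The highest and the lowest Pdgfra-Cre:LmnaF/F libraries thus differed by 70.4-fold, where the median gene differed by 2.16-fold in that genotype. The log2 fold change was 0.59 (SE 0.75, 95% interval -1.01 to 2.20, edgeR adjusted p = 0.837), and without Pdgfra-Cre:LmnaF/F replicate 4 it was -0.91 (adjusted p = 0.65). Replicate 4 is the library with the high cardiac myocyte and haematopoietic marker sums, the latter despite the gate against haematopoietic lineage cells, and the part of such cells in its Ltbp2 value was not tested.

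In summed TPM, the latent binding proteins had 1537 ± 409 TPM in WT and 913 ± 121 TPM in Pdgfra-Cre:LmnaF/F mice. The sums overlapped, as WT replicate 3 had 1000.1 TPM and Pdgfra-Cre:LmnaF/F replicate 1 had 1064 TPM. The Ltbp4 share of the sum was 87.1 ± 1.053% in WT and 79.8 ± 5.17% in Pdgfra-Cre:LmnaF/F mice, without overlap. Ltbp3 made up 4.15 ± 0.217% and 6.51 ± 0.928%, also without overlap, and Ltbp1 7.91 ± 0.979% and 11.7 ± 2.17%, with overlap. The shares are parts of the same sum, so that a lower Ltbp4 share goes with higher shares of the other genes. In CPM, Ltbp3 and Ltbp1 overlapped between the genotypes.

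**Figure D3:**
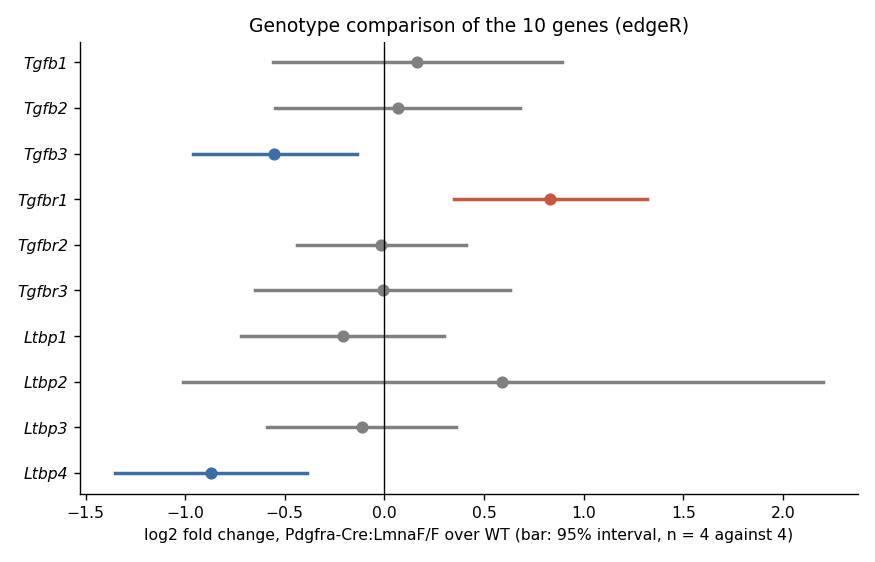
Log2 fold change of the 10 genes, Pdgfra-Cre:LmnaF/F over WT, from edgeR with 4 libraries per genotype. Bars are 95% intervals, and colour marks genes whose libraries did not overlap, in red above and in blue below WT. The intervals of Tgfb3 (-0.96 to -0.14), Tgfbr1 (0.35 to 1.32) and Ltbp4 (-1.35 to -0.39) leave out 0, and the interval of Ltbp2 is the widest (-1.01 to 2.20).

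Within libraries of like Y-linked expression, only 1 library stood on one side, and the subsets are given as values without a test. Among the libraries with Y-linked transcripts (3 WT, 1 Pdgfra-Cre:LmnaF/F), the log2 ratio of mean CPM was -0.28 for Tgfb3, 0.83 for Tgfbr1 and -1.12 for Ltbp4. Among those without (1 WT, 3 Pdgfra-Cre:LmnaF/F), it was -0.72, 0.57 and -0.30. The direction of the 3 genes was the same in both subsets, and none of them overlapped. With 1 library on one side this is common, since 67.5% of all genes tested did not overlap among libraries with Y-linked transcripts, 58.8% among those without, and 22.3% in both with the same direction. With Y-linked expression as a covariate in edgeR, the log2 fold changes were -0.51 (adjusted p = 0.281), 0.73 (adjusted p = 0.176) and -0.75 (adjusted p = 0.205). Tgfb2 went in opposite directions, with -1.08 among libraries with Y-linked transcripts and 0.83 among those without. So did Ltbp2, with 2.26 and -1.28. Tgfbr3, near 0 over all libraries, was above WT without overlap in both, with 0.39 and 0.56. Tgfb1 (0.00 and 0.59), Tgfbr2 (0.24 and -0.01), Ltbp1 (-0.08 and 0.37) and Ltbp3 (-0.02 and 0.40) overlapped in at least 1 subset.

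Of the other genes of the pathway, 69 in 5 lists were tested. As for the 10 genes, the lists were described by counts beside the 0.407% of all genes that passed. They held 3 DEGs, the target genes Eln and Id1 and the SMAD regulator Pmepa1. An unadjusted p under 0.05, found for 11.9% of all genes, was found for 19 of the 69, with 12 higher and 7 lower in Pdgfra-Cre:LmnaF/F mice, and 35 of the 69 had a higher and 34 a lower mean log2 fold change.

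**Figure D4:**
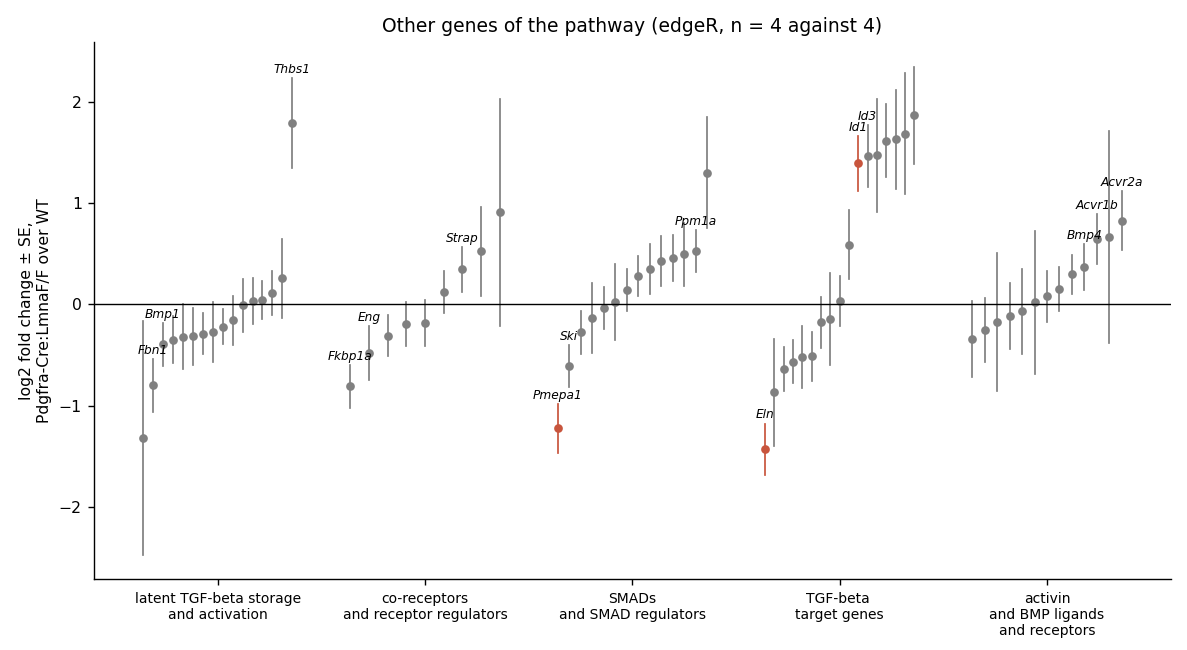
Log2 fold change with SE of 69 other genes of the pathway in 5 lists, Pdgfra-Cre:LmnaF/F over WT, with 4 libraries per genotype. Red marks the 3 genes with an edgeR adjusted p under 0.05, and labels mark the genes named by rule. Eln (-1.43) and Pmepa1 (-1.22) lie below 0 and Id1 (1.39) above, and the storage and activation genes lie mostly just below 0 with Thbs1 (1.79) far above.

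The list of latent TGF-beta storage and activation had 16 tested genes, none of them a DEG, with 5 above and 11 below 0 and a median log2 fold change of -0.25. Fbn1 encodes fibrillin, the microfibril protein to which the latent complexes are anchored. It was 4797, 6709, 3237 and 5499 CPM in WT and 3317, 2508, 2099 and 3731 CPM in Pdgfra-Cre:LmnaF/F replicates 1 to 4. WT replicate 3 lay within the Pdgfra-Cre:LmnaF/F range, and the log2 fold change was -0.80 (SE 0.26, edgeR adjusted p = 0.222). Thbs1, for the activator thrombospondin, was 257 to 375 CPM in WT and 741, 920.4, 2265 and 278 CPM in Pdgfra-Cre:LmnaF/F replicates 1 to 4. It was high in 3 of the 4 Pdgfra-Cre:LmnaF/F libraries, with a log2 fold change of 1.79 (SE 0.44, edgeR adjusted p = 0.114). It passed in 1 of 8 fits with a library omitted, without Pdgfra-Cre:LmnaF/F replicate 4 (2.10, adjusted p = 0.00709). Without Pdgfra-Cre:LmnaF/F replicate 3, where Thbs1 and the dissociation response sum were both highest, it was 1.09 (adjusted p = 0.268), and with the Y-linked covariate 1.13 (adjusted p = 0.405). Bmp1, a protease that also cleaves latent binding proteins, had a log2 fold change of -0.39 (SE 0.21, edgeR adjusted p = 0.498).

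The 9 co-receptors and receptor regulators held no DEG, with a median log2 fold change of -0.19. Fkbp1a, whose product binds the type I receptor and keeps it inactive without ligand, was 131 to 182 CPM in WT and 69.4 to 119 CPM in Pdgfra-Cre:LmnaF/F libraries. All Pdgfra-Cre:LmnaF/F values were below WT, and the log2 fold change was -0.81 (SE 0.21, edgeR adjusted p = 0.129). The co-receptor Eng had -0.48 (SE 0.26, edgeR adjusted p = 0.516) and Strap, a receptor-associated protein, had 0.35 (SE 0.22, edgeR adjusted p = 0.589), both with overlap.

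The 14 SMADs and SMAD regulators held 1 DEG, with 9 genes above and 5 below 0 and a median of 0.21. Pmepa1, a TGF-beta-induced inhibitor of SMAD signalling, fell from 200.03 ± 26.6 to 85.7 ± 27.6 CPM. It was 206, 233, 169.8 and 191 CPM in WT and 102, 51.8, 114 and 75.6 CPM in Pdgfra-Cre:LmnaF/F replicates 1 to 4, with a clear gap between the groups and a log2 fold change of -1.22 (SE 0.24, edgeR adjusted p = 0.0427). Ski, a corepressor of SMADs, was also lower without overlap, at -0.61 (SE 0.21, edgeR adjusted p = 0.247). Ppm1a, a phosphatase of SMADs, was higher without overlap, at 0.53 (SE 0.20, edgeR adjusted p = 0.313).

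The 17 tested TGF-beta target genes held 2 DEGs, with 9 genes above and 8 below 0 and a median of 0.03, and 7 higher and 3 lower genes had an unadjusted p under 0.05, against 11.9% of all genes tested. Eln, for elastin, fell from 1811 ± 588 to 674 ± 96.2 CPM. It was 2241, 2341, 1097 and 1564 CPM in WT and 632, 731, 560.4 and 773 CPM in Pdgfra-Cre:LmnaF/F replicates 1 to 4, a log2 fold change of -1.43 (SE 0.25, edgeR adjusted p = 0.0303). As for Ltbp4, WT replicate 3 was the lowest of WT. Id1, an inhibitor of differentiation that BMP and TGF-beta signalling both regulate, rose from 31.2 ± 3.60 to 82.3 ± 31.9 CPM. It was 31.9, 26.2, 32.1 and 34.7 CPM in WT and 57.9, 78.1, 128 and 64.7 CPM in Pdgfra-Cre:LmnaF/F replicates 1 to 4, a log2 fold change of 1.39 (SE 0.27, edgeR adjusted p = 0.0368). Its relative Id3 did not pass, with 1.47 (SE 0.31, edgeR adjusted p = 0.0568), although its libraries did not overlap. As with Tgfbr1, the highest Id1 and Id3 values were those of Pdgfra-Cre:LmnaF/F replicate 3, the library with the highest dissociation response sum, and the part of that response was not tested.

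The calls of Eln, Id1 and Pmepa1 depended on which libraries were in the fit. When 1 library at a time was omitted, Eln passed in 2 of 8 fits (without WT replicate 3 or Pdgfra-Cre:LmnaF/F replicate 4), Id1 in 2 (without Pdgfra-Cre:LmnaF/F replicate 1 or 4) and Pmepa1 in 0, while the log2 fold changes stayed within -1.61 to -1.28, 1.10 to 1.52 and -1.39 to -1.05. With Y-linked expression as a covariate, none of the 3 passed, with log2 fold changes of -1.14 for Eln, 1.28 for Id1 and -1.21 for Pmepa1 (adjusted p = 0.0561, 0.0641 and 0.0641).

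The 13 tested activin and BMP ligands and receptors held no DEG, with a median of 0.08. The activin receptors Acvr2a, of type II, and Acvr1b, of type I, had log2 fold changes of 0.82 (SE 0.29, edgeR adjusted p = 0.262) and 0.65 (SE 0.25, edgeR adjusted p = 0.311). Of these Acvr1b did not overlap. The ligand Bmp4 had 0.37 (SE 0.22, edgeR adjusted p = 0.573). On the CPM scale, Acvr1b was 29.3 ± 1.84 in WT and 45.8 ± 10.5 in Pdgfra-Cre:LmnaF/F mice.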

How the data were processed

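The authors sorted the cells, prepared ribosomal RNA-depleted, strand-specific libraries from RNA with a RIN above 8, used HISAT2 (mm10) for alignment and featureCounts with GENCODE for counting, and deposited raw counts per gene symbol. Their RUV normalization is not part of these counts. Gene lengths and coordinates are from GENCODE M21 (GRCm38), which held 18918 of the 18957 symbols. Sequences are from RefSeq (GRCm38.p6).

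The test used edgeR 4.0.16 under R 4.3.3 (TMM factors, filterByExpr, quasi-likelihood test, genotype as the only term, Benjamini-Hochberg adjustment over 13036 genes, threshold 0.05). The procedure was tested on simulated data. Alternatives were DESeq2 1.42.0, limma-voom with quality weights (limma 3.58.1), other scaling factors and filters, 1 RUVr factor, the replicate block, Y-linked expression as a covariate, thinning to 2080555 counts, and leaving out each library. Ratios within libraries of like Y-linked expression were added after seeing the data.

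The 10 genes and all lists were chosen with earlier results of these data known. Of each list, the genes named are the DEGs and the 3 with the lowest p. Other genes were named after their values were seen. The labels do not state that equal replicate numbers stand for pairs, and libraries were not paired. Intervals cover the spread between 4 mice per genotype.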

Additional observations from a re-analysis of the deposited data

Results flagged for a closer look

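Tgfbr1 in WT replicate 3 was flagged as far from the other samples of its group. It was 101 CPM (100.82), while the other 3 WT libraries lay between 75.5 and 76.2 CPM, so that the gap was 0.970 of the range of the group, above the 95% critical value of the gap test for 4 samples. Of 20 groups checked, 10 genes in each genotype, 1 was flagged, and chance flags about 1 in 20. WT replicate 3 was also the WT library without Y-linked transcripts and the WT library with the highest sum of dissociation response genes. Without it the log2 fold change of Tgfbr1 was 0.94.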

How the results depend on the processing

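The directions of Tgfb3, Tgfbr1 and Ltbp4 were the same under 11 alternatives and with each of 8 libraries left out. Under the 11 alternatives the log2 fold change lay between -0.57 and -0.50 for Tgfb3 (adjusted p = 0.0828 to 0.354). It lay between 0.73 and 0.89 for Tgfbr1 (adjusted p = 0.02 to 0.177) and between -0.95 and -0.75 for Ltbp4 (adjusted p = 4e-05 to 0.214). The ranges with a library left out in edgeR were wider. They were -0.64 to -0.47 for Tgfb3 (adjusted p = 0.195 to 0.514) and 0.62 to 0.96 for Tgfbr1 (adjusted p = 0.0873 to 0.342). For Ltbp4 the range was -1.02 to -0.73 (adjusted p = 0.0589 to 0.333). Members passed with DESeq2 (2 genes, Tgfbr1 at 0.83 and Ltbp4 at -0.87), DESeq2 with 1 RUVr factor (2 genes, 0.85 and -0.85) and limma-voom (1 gene, Ltbp4 at -0.95), and 0 passed in the other 8 alternatives or with any library left out. Other members reversed. With Y-linked expression as a covariate they were -0.14 for Tgfb2, 0.09 for Tgfbr2, 0.41 for Tgfbr3, 0.09 for Ltbp1 and 0.14 for Ltbp3. With limma-voom they were -0.02 for Tgfb2 and -0.09 for Ltbp2. With at least 10 counts in every library they were 0.00 for Tgfbr2 and 0.02 for Tgfbr3, and Tgfbr3 was 0.01 after thinning. With the replicate block Ltbp2 was -0.39, 0 members passed and 36 genes passed in all, against 53, with 3 pathway genes of which only Eln was among the 3 DEGs given above (Id1 1.33, adjusted p = 0.0764, and Pmepa1 -1.27, adjusted p = 0.0828). For pairing, the mean log2 CPM of its genotype was subtracted from each gene, and the remaining deviations were correlated between WT and Pdgfra-Cre:LmnaF/F libraries. The deviations of same-numbered libraries had correlations of -0.03 to 0.04, and those of 2 of 8 libraries correlated best with their own number. With each library left out, log2 fold changes ranged from -0.14 to 0.37 for Tgfb1, -0.16 to 0.29 for Tgfb2, -0.13 to 0.09 for Tgfbr2, -0.28 to 0.17 for Tgfbr3, -0.91 to 1 for Ltbp2 and -0.28 to 0.04 for Ltbp3. The 3 pathway DEGs became 9 with DESeq2, 6 with limma-voom, 11 without a filter, 5 with RUVr, 9 with DESeq2 and RUVr and 1 with the Y-linked covariate, which was Lox (2.16, adjusted p = 0.0165) and none of the 3. They became 0 to 4 with a library left out, 0 without WT replicate 1, WT replicate 4 or Pdgfra-Cre:LmnaF/F replicate 2. Over all genes the DEGs numbered 274 without a filter, 303 with DESeq2, 457 with DESeq2 and RUVr, 126 with limma-voom, 83 with RUVr, 114 with the Y-linked covariate, and 13 to 76 with a library left out. The causes were not tested.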

Other observations

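Postn and Lox were highest in Pdgfra-Cre:LmnaF/F replicate 4, as Ltbp2 was, and were picked after their values were seen. This library also had the highest sums of cardiac myocyte markers (3010 CPM) and haematopoietic markers (442 CPM), and their part was not tested. Postn, which encodes the matrix protein periostin and is on the list of TGF-beta target genes, was 3040.1 CPM in this library and 204 to 595 CPM in the other 7. Its log2 fold change was 1.68 (SE 0.60, edgeR adjusted p = 0.264), and 0.37 without this library (adjusted p = 0.757). Lox, for a cross-linking enzyme of collagen and elastin, was 826 CPM in this library and 73.3 to 373 CPM in the other 7, with a log2 fold change of 1.86 (SE 0.48, edgeR adjusted p = 0.125), and 1.10 without this library (adjusted p = 0.205). Lox passed without Pdgfra-Cre:LmnaF/F replicate 1 (2.16, adjusted p = 0.0433) and with Y-linked expression as a covariate (2.16, adjusted p = 0.0165).

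Target genes with an unadjusted p under 0.05 but no call went in both directions. The matrix genes Sparc (-0.64, SE 0.22, edgeR adjusted p = 0.25) and Fn1 (-0.56, SE 0.21, edgeR adjusted p = 0.307) had lower means in Pdgfra-Cre:LmnaF/F mice. Higher means were measured for the transcription factor gene Junb (1.61, SE 0.36, edgeR adjusted p = 0.0791) and the protease inhibitor gene Timp1 (1.63, SE 0.49, edgeR adjusted p = 0.192). The values of Junb did not overlap between the genotypes. They were highest in replicate 3 of each genotype (967 CPM in WT and 1918 CPM in Pdgfra-Cre:LmnaF/F), the libraries with the highest dissociation response sums (4901 and 11610 CPM), and the part of that response was not tested.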
